A study of Homo sapiens with 75 samples.

Results

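The comparison set 3 arrays of irradiated cells against 3 arrays of untreated cells, all labelled HepG2 and collected at 6 h, and asked what ionizing radiation had changed by then. These 6 arrays are 6 of 75 in the series, and were taken by their labels alone: cell line HepG2, irradiated or untreated, 6 h. HepG2 is an established human line from a liver tumour. The irradiated cells received 5 Gy. The controls, per the labels, were mock-irradiated, that is, handled alike without the dose. The other 9 arrays with the HepG2 label, 3 each of untreated cells at 0 h, untreated cells at 3 h and irradiated cells at 3 h, entered the same model and are given beside the 6. All cells grew in the same serum-supplemented medium, no agent other than radiation was used, and RNA came from whole cultures. Nothing in the labels says whether replicates 1 to 3 were separate cultures, so the p-values cover array-to-array spread that could be purely technical. Levels are log2 values of 1 probe set per gene, so that a difference of 1 is a doubling.

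Ionizing radiation breaks DNA, and the kinases ATM and CHK2 answer by stabilising p53, a transcription factor. p53 raises a known set of genes: CDKN1A, which stops the cell cycle by inhibiting cyclin-dependent kinases; MDM2, PPM1D and the sestrins, which include feedback inhibitors of the same pathway; death genes such as FAS and BAX; repair genes such as DDB2, XPC and POLH; and genes of metabolism and secretion such as GDF15. The p21 protein made from CDKN1A also acts through the DREAM complex, which binds short elements in the promoters of genes of G2 and mitosis and turns them down.

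The promoters of 5 genes described below are shown because each holds an element of one of these kinds, PTCHD4 for p53 and the other 4 for the mitotic genes. Each is the 250 bases before the gene's start, from RefSeq on GRCh38.p14, written 5′ to 3′ on the gene's strand with the matched element in capitals. PTCHD4 (chr6:48111198-48111447, minus strand) carries a full match to the p53 response element consensus, in bases 20 to 1 before the start. CENPE (chr4:103198344-103198593, minus strand) and CCNB1 (chr5:69166900-69167149, plus strand) carry TTTAAA, and HJURP (chr2:233854536-233854785, minus strand) and BORA (chr13:72727673-72727922, plus strand) carry TTTGAA, the 2 common forms of the cell cycle genes homology region.
PTCHD4: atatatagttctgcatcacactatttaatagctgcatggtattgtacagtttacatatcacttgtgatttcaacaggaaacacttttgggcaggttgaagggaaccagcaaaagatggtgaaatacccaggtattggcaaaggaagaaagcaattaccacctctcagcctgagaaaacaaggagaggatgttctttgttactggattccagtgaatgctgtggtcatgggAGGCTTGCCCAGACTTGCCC
CENPE: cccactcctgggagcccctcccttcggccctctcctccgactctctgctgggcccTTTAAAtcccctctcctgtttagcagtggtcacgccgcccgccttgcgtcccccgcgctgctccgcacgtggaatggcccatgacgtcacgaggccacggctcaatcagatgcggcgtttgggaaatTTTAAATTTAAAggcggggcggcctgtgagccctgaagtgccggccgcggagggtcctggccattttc
CCNB1: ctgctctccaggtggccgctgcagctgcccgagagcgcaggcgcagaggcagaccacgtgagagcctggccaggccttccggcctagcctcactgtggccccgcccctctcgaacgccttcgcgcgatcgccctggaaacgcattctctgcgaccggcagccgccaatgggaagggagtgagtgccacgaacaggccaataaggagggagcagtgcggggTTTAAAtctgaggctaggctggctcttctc
HJURP: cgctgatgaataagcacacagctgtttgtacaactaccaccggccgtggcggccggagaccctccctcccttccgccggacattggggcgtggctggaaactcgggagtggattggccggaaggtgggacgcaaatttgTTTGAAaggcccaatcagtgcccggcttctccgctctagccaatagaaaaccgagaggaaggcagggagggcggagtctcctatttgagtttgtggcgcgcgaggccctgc
BORA: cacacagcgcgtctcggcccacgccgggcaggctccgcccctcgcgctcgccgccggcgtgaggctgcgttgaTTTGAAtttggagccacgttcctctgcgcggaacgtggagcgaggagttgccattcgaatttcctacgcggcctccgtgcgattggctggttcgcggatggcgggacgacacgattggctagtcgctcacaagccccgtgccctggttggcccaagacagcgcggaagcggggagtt

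The p53 consensus, searched on both strands with up to 13 bases between its half-sites, was found in 8 of 27305 promoters of this length (0.0293%) and in 1 of 52 p53 targets with a promoter in the table (1.92%), which is PTCHD4. TTTGAA, searched on both strands, was in 22 of 43 promoters of tested G2 and mitosis genes (51.2%) and in 13.6% of all promoters. TTTAAA, searched in the same way, was in 15 of the 43 (34.9%) and in 11.4% of all. One form or the other was in 30 of the 43 (69.8%) and in 22.1% of all. TTTAAA reads the same on both strands, and the 2 forms cannot match at the same position. A match is a description of the sequence, not of binding.

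Levels of 14369 genes were tested, those whose mean over the 15 arrays passed 3.47 log2, the 40th percentile of all probe sets. Arrays within a group correlated at 0.987 to 0.996. Untreated replicate 1 at 0 h stood apart, with an upper quartile of 6.00 log2 against 6.24 to 6.41 in the other 14 arrays. Counts of the main comparison are therefore also given without the 0 h arrays. The difference between the 5′ and 3′ control probe sets of ACTB, a sign of RNA integrity, was -0.43 to -0.71 log2 in the replicate 1 arrays and -0.92 to -1.07 in replicates 2 and 3. It moved with the replicate number, not with the dose: the 6 h arrays read -0.58, -0.94 and -0.94 irradiated and -0.43, -1.07 and -0.92 untreated.

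The hepatocyte markers went against the label. Of 15 measured hepatocyte genes of 17 listed, 7 passed the level limit and 2, AFP and CYP2E1, were higher in these arrays than in the other 4 lines. ALB, the serum albumin gene that defines hepatocytes, lay between 2.42 and 2.92 in the 6 arrays, below the limit, as did SERPINA1 at 2.85 to 3.33. The SERPINA1 mean was 8.57 in the arrays labelled U2OS, another line of the series. The mean over the hepatocyte list was 3.69 to 3.78 in the irradiated and 3.64 to 3.72 in the untreated arrays. The mean over the fibroblast and mesenchymal list, with 11 of 13 genes past the limit, was 5.83 to 6.02 in the irradiated and 6.00 to 6.11 in the untreated arrays. In the arrays labelled U2OS and BJ, a fibroblast line, it was 7.03 to 7.48 and 11.18 to 11.49, and 0 of the 13 were highest in the HepG2-labelled arrays. Within the list COL6A3, a collagen of connective tissue, lay between 11.14 and 11.53 in the 6 arrays, while COL3A1 (2.58 to 3.11) and LUM (2.08 to 2.36) were below the limit. Of 7 measured bone genes 5 passed the limit: RUNX2, a transcription factor of bone, lay between 8.95 and 9.27, and SP7 and ALPL were below the limit. The cells are therefore called by their label only.

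The arrays labelled untreated at 6 h also went against their label in the pathway that the dose acts on. The mean level of 63 tested p53 targets, set against the 0 h arrays, was 0.57, 0.52 and 0.49 log2 in untreated replicates 1, 2 and 3 at 6 h. It was 0.04, 0.22 and 0.16 in the untreated arrays at 3 h, and 0.06, 0.17 and 0.11 in the arrays labelled irradiated at 3 h. The 3 h groups overlapped, and every 6 h array lay above every 3 h array. In the irradiated arrays at 6 h it was 0.74, 0.80 and 0.75, above all 3 untreated ones, a difference of 0.24. The 0 h arrays themselves spread, with -0.23, 0.15 and 0.07 in replicates 1, 2 and 3. Means and differences against 0 h keep replicate 1, unless arrays are said to be left out. In limma, 18 of the 63 were higher in the untreated 6 h than in the untreated 0 h arrays and 0 lower, where 0.508% of all genes were called higher. The difference between irradiated and untreated arrays at 6 h therefore compares 2 groups that both had raised p53 targets, and results are repeated below against the untreated arrays at 3 h, in which no gene was called against 0 h (1490 genes had an unadjusted p under 0.05, and 24, or 0.167%, were called with the block). The comparison with the untreated 3 h arrays differs in time as well as in dose. The labels were kept as given. Whether those of the untreated 6 h and irradiated 3 h arrays are right was not tested, so each difference below is between arrays labelled irradiated and arrays labelled untreated.

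**Figure D1:**
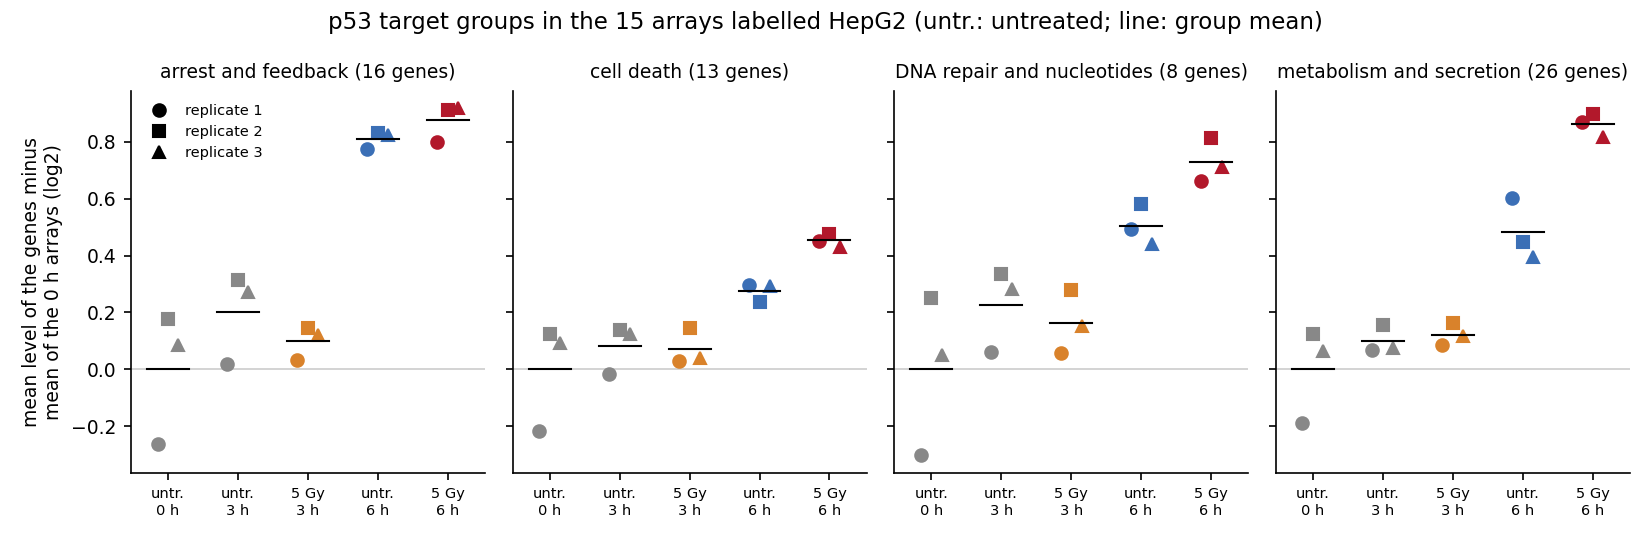
Mean log2 level of the tested p53 targets of 4 roles in each of the 15 arrays labelled HepG2, minus the mean of the 3 untreated arrays at 0 h; each point is 1 array (shape: replicate number) and each line a group mean. Arrest and feedback genes of the untreated 6 h arrays (0.77 to 0.83) overlap the irradiated ones (0.80 to 0.92). The 6 h groups are separate in the panels of death, of repair, and of metabolism and secretion. The 3 h groups lie lower in all 4 panels.

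Few genes separated the groups at 6 h. Without the replicate number limma called 1 gene at an adjusted p under 0.05, which is 0.00696% of the genes tested: CENPE, lower after irradiation. At an unadjusted p under 0.05 there were 917 genes. Because same-numbered arrays of the 2 groups deviated together, the fit with the replicate number as a block is given beside it. With the block limma called 56 genes (0.39%), 34 higher (0.237%) and 22 lower (0.153%), CENPE among them. In what follows "rose" and "fell" mean called with the block, and of these only CENPE was called without it. Of the 56, 55 had all 3 irradiated arrays on one side of all 3 untreated arrays. They were called from the same arrays, so their lack of overlap is no separate support. Over all genes 7.2% lay entirely higher and 7.02% entirely lower. The count depends on the arrays: without the 0 h arrays, a choice made after seeing the data, it was 10 (0.0696%) without and 488 (3.4%) with the block, and all 56 were among the 488. Without replicate 1 of every group it was 370 without and 356 with the block, and without replicate 2 or replicate 3 it was 0 in each fit.

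Of the p53 targets, 11 of 63 rose and 0 fell, beside 0.237% of all genes that rose. Another 7 listed targets had no value here (BTG2, BBC3, FDXR, TNFRSF6B, GLS2) or lay below the level limit (TNFRSF10A, ABCA12). Members of this and the other lists were chosen with earlier results of these data known. Shares set beside those of all genes are therefore descriptive and no test of the lists. The median difference over the 63 was 0.21 log2, beside 0.01 over all genes, with 47 above 0 and 16 below. In 28 of the 63 (44.4%) the irradiated arrays lay entirely above the untreated ones, beside 7.2% of all genes, and in 5 (7.94%) entirely below, beside 7.02%. The 11 had adjusted p-values of 0.132 to 0.693 without the block. Without the 0 h arrays 21 of the 63 were called higher and 1 lower with the block, where 1.81% and 1.59% of all genes were. Without replicate 1 of every group 23 were called higher. The count over all genes, given above, was then also far larger, so 0.237% is no background for the 23. Without replicate 2 or 3, 0 of the p53 targets were called higher. Leaving out 1 of the 6 arrays gave 11 without untreated replicate 1, 0 without untreated replicate 3, and 1 without any of the other 4. Shares over all genes in these fits are not given here, so 0.237% is no background for these counts either.

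Genes of metabolism, secretion and other roles held 7 of the 11. PTCHD4, a patched-related membrane protein whose promoter is shown above, read 6.49, 5.80 and 6.09 in irradiated replicates 1, 2 and 3 and 5.45, 4.06 and 4.21 in the untreated ones. The groups did not overlap, and untreated replicate 1 stood above the other 2. The difference was 1.55 log2 ± 0.30 (SE with the block, n = 3 arrays a group), or 2.94-fold, with an adjusted p of 0.0260 in limma with the block. TGFA, a ligand of the EGF receptor, read 6.76, 7.13 and 7.06 irradiated and 5.96, 5.93 and 5.69 untreated. All 3 irradiated arrays were above all 3 untreated ones, and the difference was 1.12 ± 0.20 (adjusted p in limma with the block 0.0197). The other 2 TGFA probe sets above the level limit gave less, at 0.08 and 0.20. FUCA1, a lysosomal fucosidase, read 8.98, 9.25 and 9.06 irradiated and 8.18, 8.43 and 8.18 untreated. The irradiated values lay entirely above the untreated ones, with a difference of 0.83 ± 0.12 (adjusted p in limma with the block 0.00289). Both 6 h groups stood far above the 0 h mean of 6.27: FUCA1 was 1.99 higher in the untreated and 2.83 higher in the irradiated arrays.

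ASTN2, an astrotactin of membrane trafficking, read 6.32, 6.17 and 5.67 irradiated and 5.12, 4.80 and 5.36 untreated, a difference of 0.96. Its untreated 6 h mean, 5.09, equalled its 0 h mean to 2 decimals. ANKRA2, an ankyrin repeat protein that binds HDAC4, rose by 0.66 ± 0.13, CYFIP2, a subunit of the actin-regulating WAVE complex, by 0.55 ± 0.11, and FBXO22, a ubiquitin ligase subunit that acts on p53 and on histone demethylases, by 0.43 ± 0.095. ANKRA2, CYFIP2 and FBXO22 all had higher values in each irradiated array than in any untreated array, with adjusted p-values in limma with the block of 0.0260, 0.0260 and 0.0474. INPP1, an inositol phosphatase, differed by 0.81 and DRAM1, an inducer of autophagy, by 0.47 without being called (adjusted p with the block 0.0582 and 0.158). Among the 26 tested genes of this group 12 lay entirely higher (46.2%), beside 7.2% of all genes.

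**Figure D2:**
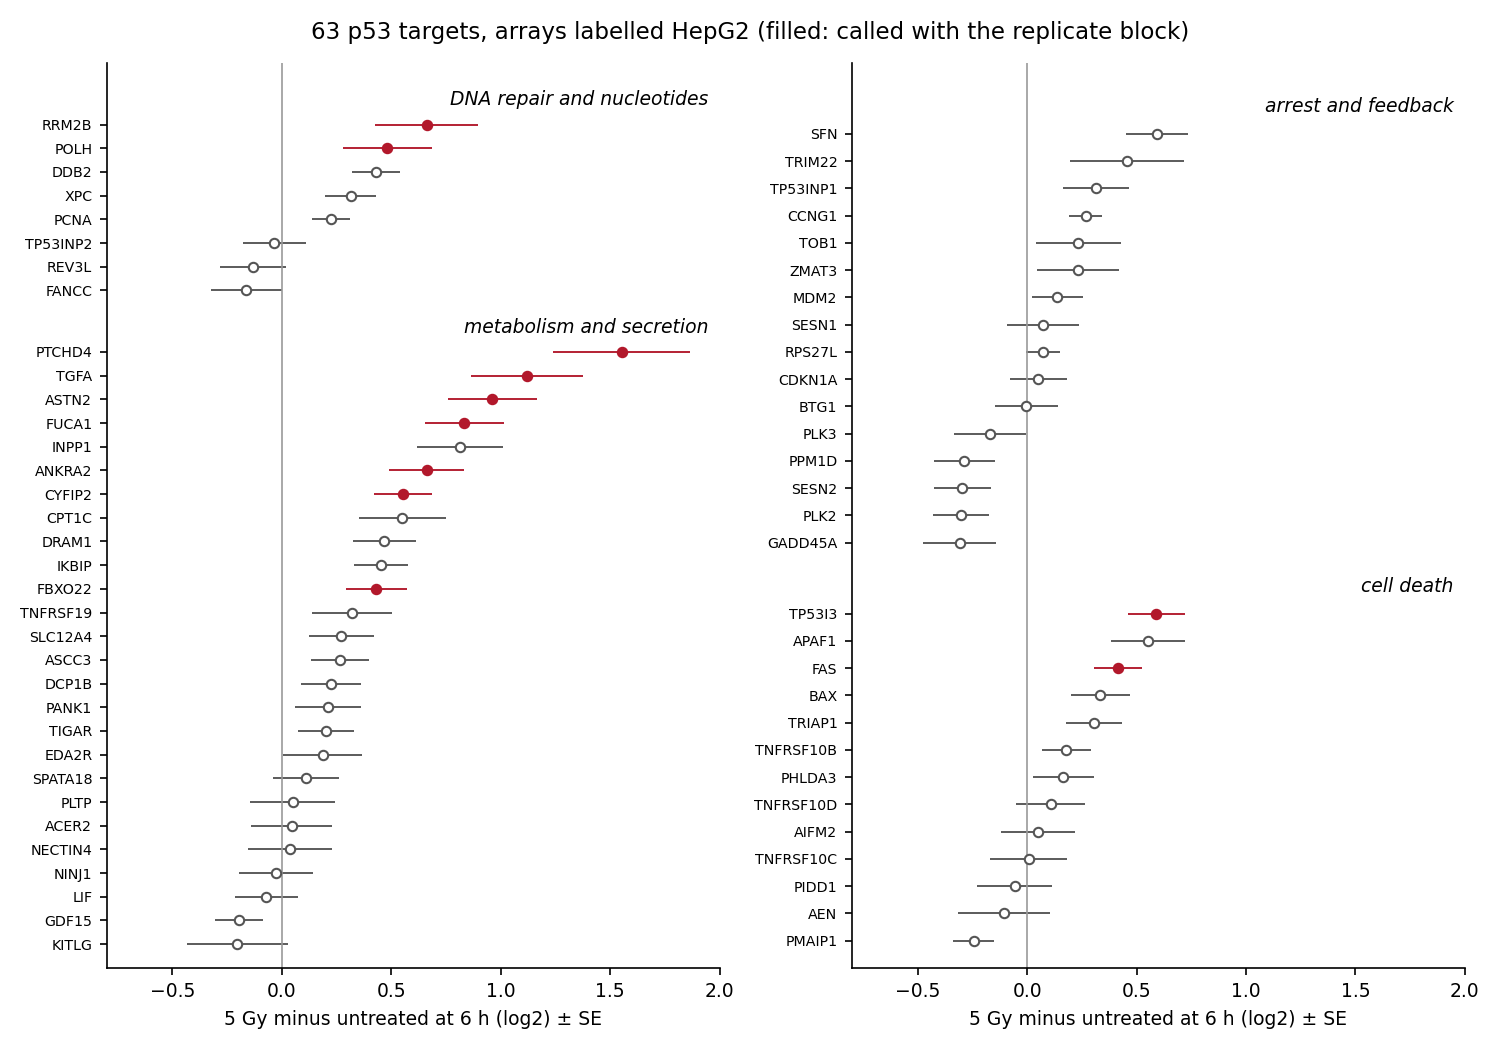
Difference of each of the 63 tested p53 targets, irradiated minus untreated at 6 h (log2, x axis), by role; bars are the SE of the fit without the block, and filled red points were called with the block. The 11 filled points reach from FAS at 0.42 to PTCHD4 at 1.55, and no gene left of 0 is filled.

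Of the 13 tested death genes, 2 rose, beside 0.237% of all genes. TP53I3, an oxidoreductase linked to oxidative stress, read 9.17, 8.81 and 8.76 irradiated and 8.50, 8.22 and 8.25 untreated. Replicate 1 was highest in each group, and within each replicate number the irradiated array was higher: the difference was 0.59 ± 0.099 (adjusted p in limma with the block 0.0106). FAS, the death receptor, read 9.99, 10.16 and 10.03 irradiated and 9.66, 9.63 and 9.64 untreated, a difference of 0.42 ± 0.085 (adjusted p in limma with the block 0.0276). APAF1, the core of the apoptosome, differed by 0.55 and BAX, which permeabilises mitochondria, by 0.33 with no overlap, and neither was called (adjusted p with the block 0.153 and 0.299). PMAIP1, the BH3-only protein NOXA, was the death gene that lay entirely lower: it read 10.77, 10.71 and 10.67 irradiated and 10.96, 10.94 and 10.98 untreated, and was not called either (-0.24, adjusted p with the block 0.291). A second probe set of PMAIP1 gave 0.09, in the other direction.

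Of the 8 tested repair and nucleotide genes, 2 rose and 5 lay entirely higher (62.5%), beside 0.237% and 7.2% of all genes. RRM2B, the p53-inducible ribonucleotide reductase subunit, read 8.25, 8.69 and 8.78 irradiated and 7.90, 7.96 and 7.87 untreated. POLH, a polymerase that copies past DNA lesions, read 8.46, 8.92 and 8.82 irradiated and 8.01, 8.45 and 8.29 untreated. In POLH the 2 sets of arrays followed each other by replicate number, with replicate 1 lowest in both, so that a difference of 0.48 had an SE of 0.20 without and 0.098 with the block. RRM2B rose by 0.66 ± 0.14 (adjusted p in limma with the block 0.0427) and POLH had an adjusted p of 0.0276 in the same fit. The nucleotide excision repair genes DDB2 and XPC differed by 0.43 and 0.31, and PCNA, the sliding clamp of DNA polymerases, by 0.22. DDB2, XPC and PCNA lay entirely higher after irradiation but were not called (adjusted p with the block 0.0635, 0.260 and 0.148).

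Of the 16 tested genes of arrest and feedback, 0 rose and 0 fell. CDKN1A read 10.41, 10.44 and 10.44 irradiated and 10.43, 10.25 and 10.46 untreated, so that the groups overlapped. The difference was 0.05 ± 0.10 (adjusted p in limma with the block 0.931), while the mean at 0 h was 9.06, at 3 h untreated 9.29 and at 3 h irradiated 9.07. CDKN1A was thus 1.32 higher in the untreated and 1.37 higher in the irradiated 6 h arrays than at 0 h. MDM2, the ubiquitin ligase of p53, read 9.50, 9.64 and 9.67 irradiated and 9.37, 9.60 and 9.43 untreated against a 0 h mean of 8.42. Its difference was 0.14, and of 8 other MDM2 probe sets 6 gave the same sign, with values from -0.06 to 0.97. SESN1, a stress-induced inhibitor of mTORC1, showed the same pattern, with 8.66, 8.93 and 8.92 irradiated, 8.82, 8.75 and 8.72 untreated, and 7.17 at 0 h.

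Within this role 5 of 16 lay entirely higher (31.2%) and 3 entirely lower (18.8%), beside 7.2% and 7.02% of all genes. PPM1D, the phosphatase WIP1 that switches ATM and p53 off again, read 8.59, 8.94 and 8.82 irradiated and 8.99, 9.11 and 9.12 untreated. SESN2 read 8.10, 8.36 and 8.50 irradiated and 8.62, 8.62 and 8.60 untreated. PPM1D, at -0.29, SESN2, at -0.30, and PLK2, a polo-like kinase, at -0.30, were lower in every irradiated array and were not called (adjusted p with the block 0.310, 0.381 and 0.381). GDF15, a secreted stress cytokine, read 10.66, 10.71 and 10.67 irradiated and 11.14, 10.72 and 10.76 untreated, also entirely lower at -0.20 (adjusted p with the block 0.568), with a 0 h mean of 8.89. GADD45A, a stress protein that blocks CDK1, was lower in the irradiated array of every replicate number, at -0.31 on average; limma with the block called it without the 0 h arrays (adjusted p 0.0462) and not with them (0.165). Among the entirely higher ones SFN, the 14-3-3 protein that holds cells in G2, differed by 0.59 (adjusted p with the block 0.0669), and CCNG1, a cyclin, by 0.27 (0.0813).

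**Figure D3:**
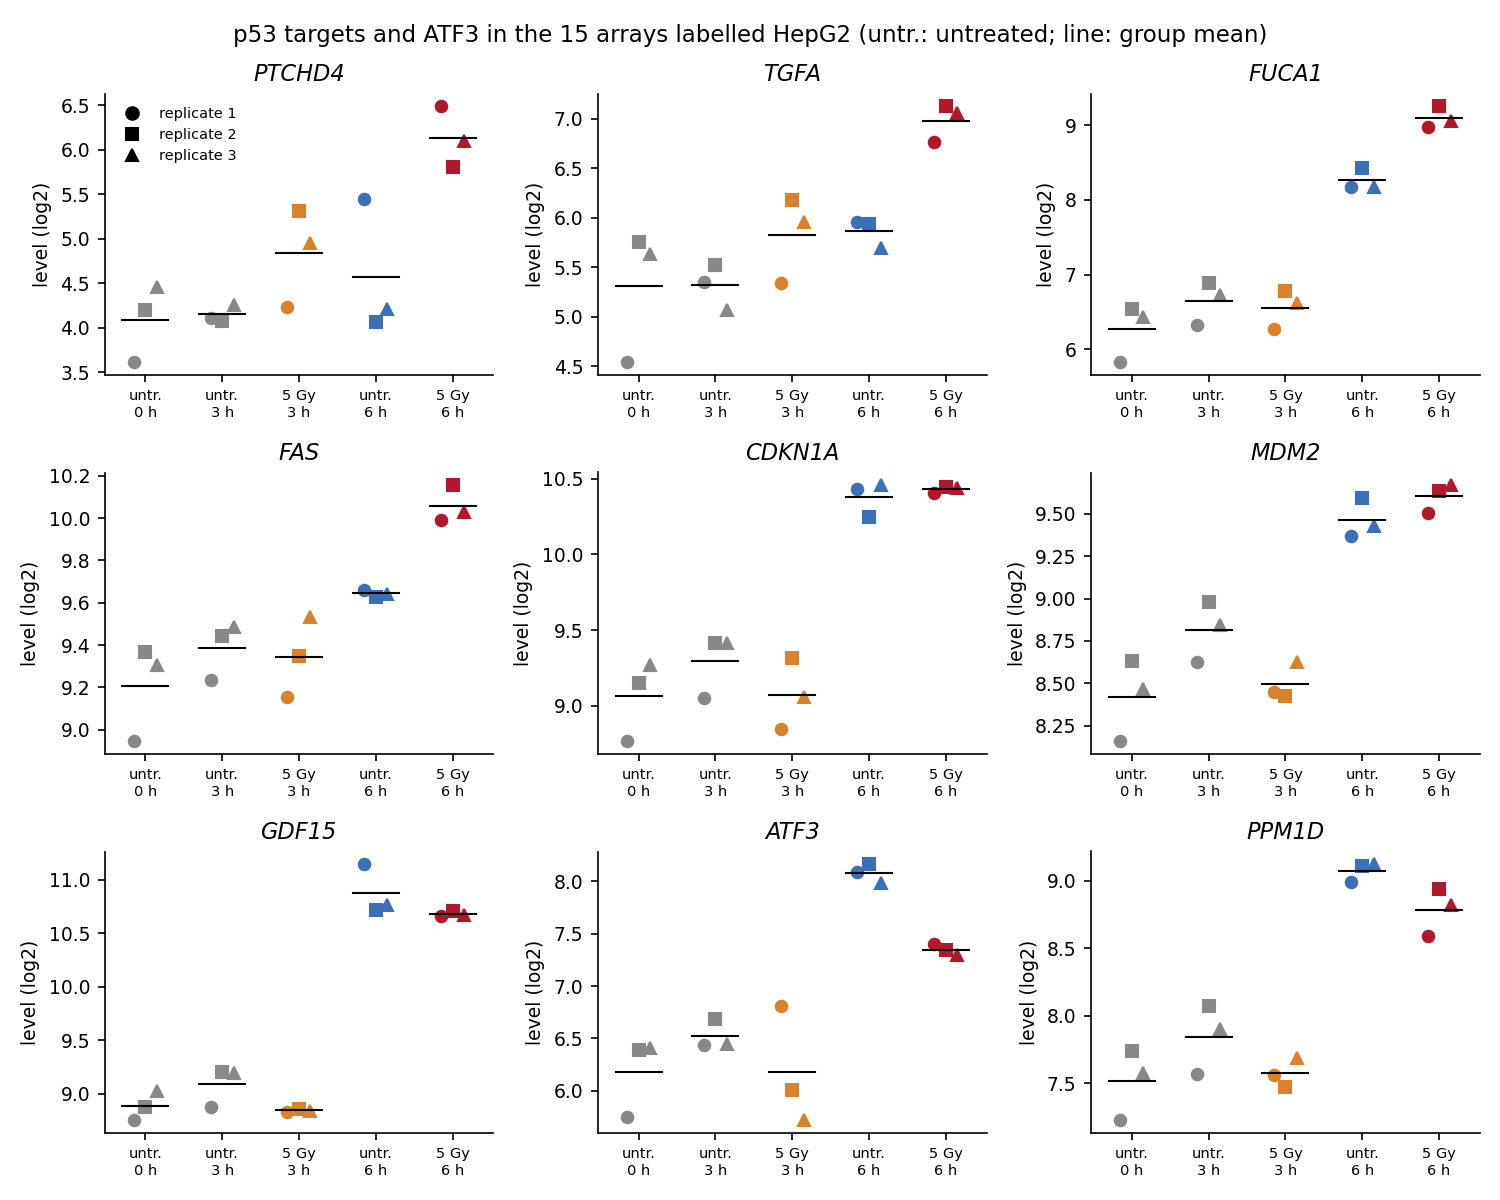
Log2 level of 8 p53 targets and of ATF3, a stress transcription factor, in each of the 15 arrays labelled HepG2 (5 groups of 3; shape: replicate number; line: group mean; axes do not start at 0). PTCHD4, TGFA, FUCA1 and FAS are higher in the irradiated than in the untreated arrays at 6 h; CDKN1A and MDM2 overlap; GDF15, ATF3 and PPM1D are lower.

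Against the starting point both 6 h groups had p53 targets called higher and none lower. The comparisons below share arrays, so their values stand side by side only. In limma without the block 36 of the 63 were called higher in the irradiated 6 h arrays than at 0 h, where 1.31% of all genes were, next to the 18 in the untreated 6 h arrays; the medians over the list were 0.78 and 0.44, beside 0.07 and 0.06 over all genes. By role, called genes numbered 10 irradiated and 7 untreated of 16 for arrest and feedback, 5 and 1 of 13 for death, 6 and 3 of 8 for repair, and 15 and 7 of 26 for metabolism and secretion. TP53INP1, an autophagy and death protein, was 2.35 higher in the irradiated and 2.03 higher in the untreated arrays. PTCHD4 was 2.04 and 0.48 higher, TGFA 1.67 and 0.55, GDF15 1.79 and 1.99, and PPM1D 1.27 and 1.56. Set against the untreated arrays at 3 h in place of 6 h, 27 of the 63 were called higher and 0 lower, where 0.425% of all genes were higher, and 42 lay entirely higher, beside 10.9% of all genes. CDKN1A then differed by 1.14 (adjusted p in limma 4.06e-05), MDM2 by 0.79 (0.000801), GDF15 by 1.58 (8.82e-08) and PTCHD4 by 1.98 (0.00135). Time and dose both differ here, and their parts cannot be told apart. In the arrays labelled untreated the mean over the list was 0.14 at 3 h and 0.53 at 6 h, against 0 h. In the arrays labelled irradiated at 3 h 0 of the 63 were called against 0 h, where 0.452% of all genes were.

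Genes of G2 and mitosis were mostly lower after irradiation, with a few higher. Of 49 tested, 5 fell and 2 rose, beside 0.153% and 0.237% of all genes. The irradiated arrays lay entirely lower in 15 (30.6%), beside 7.02% of all genes, and entirely higher in 4 (8.16%), beside 7.2%. The median difference was -0.12 log2, with 34 below and 15 above 0. CENPE, the kinesin that carries chromosomes to the spindle equator, read 7.32, 7.42 and 7.25 irradiated and 8.12, 8.07 and 7.94 untreated. It was the gene called in both fits, at -0.71 ± 0.090, or 1.64-fold lower (adjusted p in limma 0.00676 without and 0.00129 with the block). Without the block its call was lost when replicate 2 or 3 of every group, irradiated replicate 1 or 3, or untreated replicate 2 was left out, and its difference then stayed between -0.68 and -0.74.

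SGO2, the shugoshin that guards centromere cohesion, read 7.33, 7.20 and 7.29 irradiated and 7.79, 7.84 and 7.98 untreated. CCNB1, the cyclin of the mitotic kinase CDK1, read 10.07, 10.03 and 10.08 irradiated and 10.48, 10.34 and 10.32 untreated. In both genes the irradiated arrays were closer to each other than to any untreated array. SGO2 fell by 0.60 on the log2 scale (adjusted p in limma with the block 0.0159), CCNB1 fell by 0.32 (0.0260), AURKA, the spindle pole kinase, fell by 0.37 (0.0388) and ASPM, a spindle pole protein, fell by 0.34 (0.0335). The untreated 6 h arrays already differed from 0 h in some of them: AURKA was -0.57 and SGO2 -0.44 against 0 h there, and -0.94 and -1.03 in the irradiated arrays. ASPM and CCNB1 were -0.04 and -0.14 untreated and -0.38 and -0.46 irradiated.

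HJURP and FAM83D went the other way. HJURP, the chaperone that loads CENP-A at centromeres, read 9.26, 8.97 and 9.09 irradiated and 8.53, 8.62 and 8.60 untreated. FAM83D, a spindle protein, read 9.33, 9.15 and 9.06 irradiated and 8.37, 8.84 and 8.78 untreated. All irradiated arrays were higher than all untreated ones, and both were below their 0 h means of 9.33 and 9.66. HJURP rose by 0.52 ± 0.085 (adjusted p in limma with the block 0.00897) and FAM83D by 0.52 ± 0.098 (0.0251). Against 0 h, HJURP was -0.75 in the untreated and -0.22 in the irradiated arrays; the FAM83D means were 8.66 and 9.18. BORA, an activator of the kinases AURKA and PLK1, read 7.29, 6.74 and 6.54 irradiated and 6.49, 6.55 and 5.95 untreated: the groups overlapped by 1 pair of arrays, and the difference of 0.53 was not called (adjusted p with the block 0.0978). BORA was -1.48 against 0 h in the untreated and -0.95 in the irradiated arrays.

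**Figure D4:**
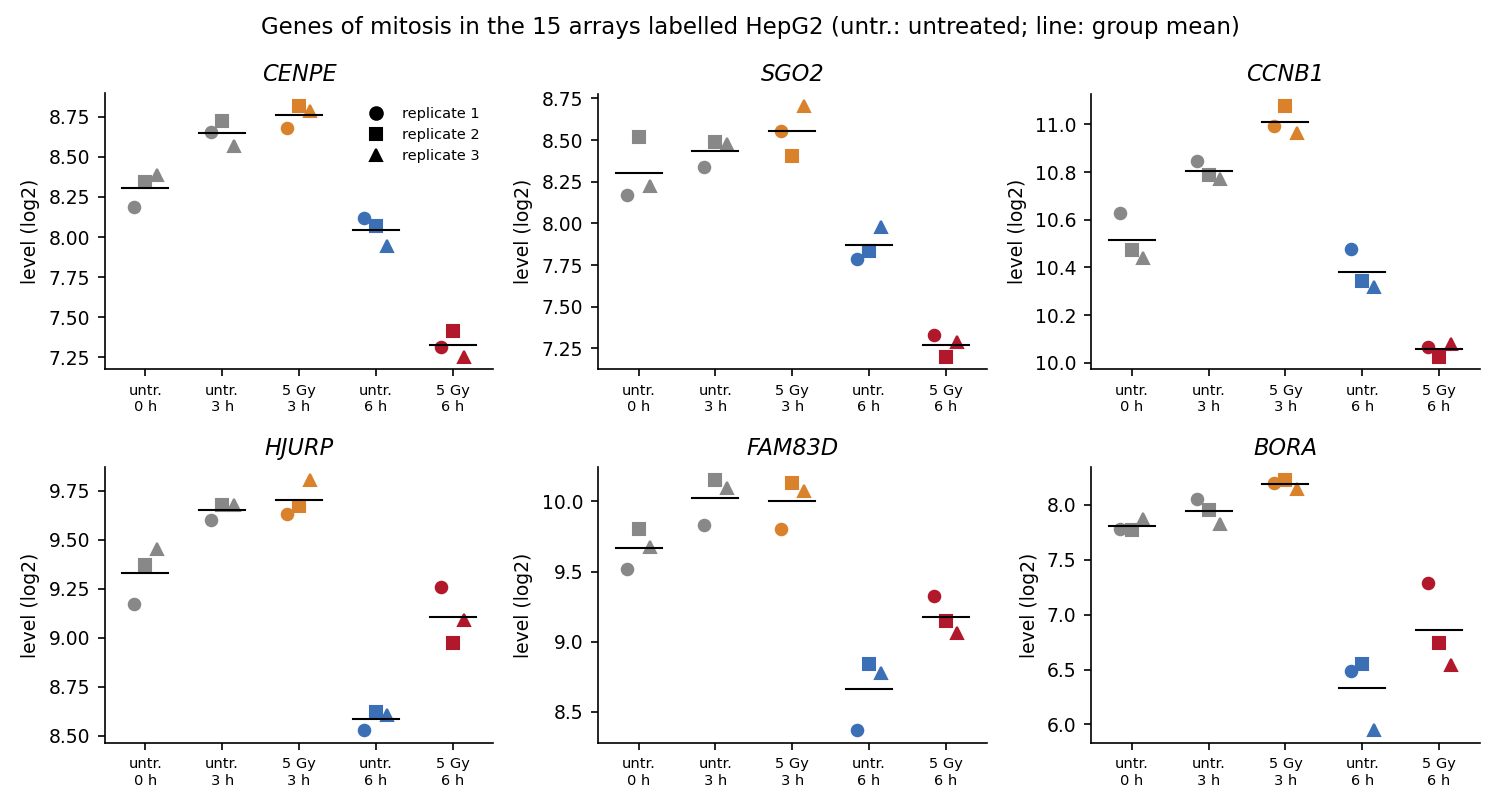
Log2 level of 6 genes of mitosis in each of the 15 arrays labelled HepG2 (5 groups of 3; shape: replicate number; line: group mean; axes do not start at 0). CENPE, SGO2 and CCNB1 are lowest in the irradiated 6 h arrays, HJURP, FAM83D and BORA have their lowest group means in the untreated 6 h arrays, and the 3 h groups lie above the 6 h groups in all 6 panels.

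Over the mitotic list the mean level against 0 h was -0.21 ± 0.018 (SD, n = 3) in the untreated and -0.31 ± 0.034 in the irradiated 6 h arrays, and 0.28 ± 0.031 and 0.33 ± 0.024 in the untreated and irradiated 3 h arrays. Against 0 h, 18 of 49 were called lower in the irradiated and 9 in the untreated 6 h arrays, where 0.23% and 0.132% of all genes were. Against the untreated arrays at 3 h, 30 of 49 were called lower, where 0.612% of all genes were, and 42 lay entirely lower, beside 10.6% of all genes. Time and dose both differ in that comparison, and their parts cannot be told apart. The list mean went from 0.28 at 3 h to -0.21 at 6 h in the arrays labelled untreated. In those labelled irradiated it went from 0.33 to -0.31. RNA of a whole culture cannot tell fewer cells in mitosis from less RNA per cell. These counts, too, depended on the arrays. Without the 0 h arrays 14 were called lower and 3 higher with the block, where 1.59% and 1.81% of all genes were. Without replicate 1 of every group 10 were called lower. The count over all genes, given above, was then also far larger than in the main fit with the block. Without replicate 2 or 3, 0 of the mitotic list were called lower. Without untreated replicate 1 it was 2 lower, without irradiated replicate 1 it was 3, and without any of the other 4 arrays it was 1. Shares over all genes in these fits are not given here, so the counts have no background.

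Among genes outside these lists the largest rise was that of KRCC1, a little-described gene, at 1.29 ± 0.25 (adjusted p in limma with the block 0.0260). KRCC1 read 7.41, 7.82 and 7.61 irradiated and 7.17, 5.97 and 5.85 untreated, with untreated replicate 1 close to the irradiated arrays. Its mean was also high, 7.28, in the arrays labelled irradiated at 3 h, against 6.20 in the untreated 3 h arrays. Without the block this 3 h difference was not called (adjusted p in limma 0.649). ORAI3, a calcium channel subunit of the plasma membrane, read 8.32, 8.12 and 8.16 irradiated and 7.60, 7.43 and 7.27 untreated, with a 0 h mean of 7.24. ORAI3 rose by 0.77 ± 0.12 (adjusted p in limma with the block 0.00591). CSMD3, a large membrane protein, rose by 0.98, TRIML2, a tripartite motif protein, by 0.92 and C12orf60 by 0.94, each with no overlap of the groups. APOBEC3G, a cytidine deaminase, rose by 0.87 on the probe set used, and -0.03 was read on its other probe set.

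Of the other genes that rose, several had untreated 6 h means under their 0 h means. CDKN1B, the cyclin-dependent kinase inhibitor p27, read 7.41, 7.61 and 7.74 irradiated and 6.85, 6.99 and 6.74 untreated, with a 0 h mean of 7.39. CDKN1B rose by 0.73 ± 0.11 (adjusted p in limma with the block 0.00591), and against 0 h it was 0.20 irradiated and -0.53 untreated. CCNG2, a cyclin linked to cell cycle exit, read 7.04, 5.93 and 6.02 irradiated and 5.69, 5.46 and 5.03 untreated: irradiated replicate 1 stood apart, and the rise of 0.94 ± 0.16 had an adjusted p of 0.346 without and 0.0106 with the block in limma. Against 0 h CCNG2 was 0.47 irradiated and -0.47 untreated. NUDT6, a Nudix hydrolase, rose by 0.59 and was 0.11 irradiated and -0.48 untreated against 0 h. CSTF3, a cleavage stimulation factor of mRNA 3′ ends, rose by 0.71 on the probe set used and by less on its other 2, at 0.26 and 0.01, and was 0.46 irradiated and -0.24 untreated against 0 h.

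The largest fall on the probe sets used was that of DIDO1, a chromatin reader, which read 5.68, 5.24 and 5.57 irradiated and 5.79, 6.77 and 6.82 untreated. Untreated replicate 1 lay next to the irradiated arrays, and DIDO1 fell by 0.96 on the log2 scale (adjusted p in limma with the block 0.0260). Its other 3 probe sets gave -0.61, -0.29 and -0.05, the last from the one brightest in these 15 arrays. PHLPP1, a phosphatase of AKT, read 5.33, 5.13 and 4.81 irradiated and 5.95, 5.80 and 5.93 untreated, and fell by 0.80 (adjusted p in limma with the block 0.0197). UNG, the uracil DNA glycosylase, read 8.75, 8.88 and 8.85 irradiated and 9.19, 9.44 and 9.47 untreated, and fell by 0.54 (0.0159). UNG was as low in the arrays labelled irradiated at 3 h, with a mean of 8.86 against 9.45 in the untreated 3 h arrays. That 3 h difference was not called without the block (adjusted p in limma 0.349). EFNB2, an ephrin, fell by 0.60, ZFP36L2, which speeds decay of AU-rich mRNAs, fell by 0.56, EXT1, a heparan sulfate polymerase, fell by 0.41 and EIF5, an initiation factor, fell by 0.29. FOXC2, a forkhead factor, fell by 0.59 on the probe set used and read 0.02 on its other one.

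The remaining lists held 3 genes called with the block, all of them lower, where 0.153% of all genes were. NFKBIA, the inhibitor of NF-kB and its target, read 9.11, 8.86 and 8.79 irradiated and 9.83, 9.20 and 9.39 untreated: it fell by 0.55 (adjusted p in limma with the block 0.0280), and was 1 of 24 tested NF-kB targets. Against 0 h, NFKBIA was 0.46 in the untreated and -0.09 in the irradiated arrays. SRSF5, a splicing factor, fell by 0.35 (0.0276), 1 of 19 in its list. H2BC4, a replication-dependent histone, fell by 0.90 (0.00591), 1 of 22, and is uncertain because histone genes have near-identical copies. Over the NF-kB targets the median difference was 0.10, with 14 above 0 and 10 below. Without the 0 h arrays, again with the block, 3 of the 24 were called lower, where 1.59% of all genes were, and 1 higher, where 1.81% were: NFKBIA, TNFAIP3 (-0.54), the NF-kB inhibitor A20, and IER3 (-0.21) were lower and BCL2A1, a survival protein of the BCL2 family, was higher (0.48). ATF3 was not called with the 0 h arrays (adjusted p with the block 0.115) and was without them (0.0174). It read 7.40, 7.35 and 7.30 irradiated and 8.09, 8.16 and 7.98 untreated, a difference of -0.73, while both groups stood above the 0 h mean of 6.18. A second ATF3 probe set above the level limit gave -0.15.

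In DNA replication and S phase 0 of 42 genes were called with the block, 6 (beside 1.59% of all genes) were called lower and 0 higher without the 0 h arrays, and 13 (31.0%) lay entirely lower and 0 entirely higher, beside 7.02% and 7.2% of all genes. CDC6, which loads the replicative helicase, was -0.43, CCNE1, the cyclin of S phase entry, -0.38, DTL, a ubiquitin ligase subunit that degrades CDT1, -0.33 and CDT1 itself -0.28. The antioxidant genes under NRF2 had 4 of 13 entirely lower (30.8%, beside the same 7.02%) and 0 entirely higher. GCLC, which makes glutathione, was -0.42 and SRXN1, sulfiredoxin, -0.29. Without the 0 h arrays GCLC and SRXN1 were called lower in limma with the block (adjusted p 0.0386 and 0.0134). Splicing factors had 5 of 19 entirely lower (26.3%, beside 7.02%) and 1 entirely higher, with a median difference of 0.00. In double-strand break repair (35 tested), interferon-stimulated genes (26), cholesterol synthesis (19), heat shock (14), hypoxia (26), ribosomal proteins (18), ribosome biogenesis (19), extracellular matrix (29), zinc response (7), the clock (14), immediate early genes (21), YAP and TGF-beta responses (20) and the integrated stress response (27), 0 were called with or without the block, and medians lay between -0.11 and 0.07 log2.

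The difference between irradiated and untreated arrays at 6 h was also set against that at 3 h in a test of the difference itself. At 3 h limma called 0 genes (809 at an unadjusted p under 0.05), and 6 with the block (0.0418%). In the test of 6 h minus 3 h, 0 genes were called without the block (329 at an unadjusted p under 0.05) and 2 with it (0.0139%), both lower at 6 h: CENPE and CCNB1. Same-numbered arrays of the 2 groups at 3 h correlated less, at 0.0961 in replicate 2, so the block is less well founded there. CENPE differed by -0.71 at 6 h and 0.11 at 3 h, a change of -0.82 (adjusted p in limma with the block 0.0276), and CCNB1 by -0.32 and 0.21, a change of -0.53 (0.0467). FUCA1 changed by 0.92 and was not called (adjusted p with the block 0.0621).

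The same 6 h contrast in the other lines, labelled G361, TK6, U2OS and BJ, gives a scale for these values. In 1 fit of all 75 arrays over 16027 genes, limma called 0 genes in G361, 713 (4.45%) in TK6, 206 (1.29%) in U2OS and 148 (0.923%) in BJ. In G361, 241 genes had an unadjusted p under 0.05. CDKN1A, at 0.05 in HepG2, was -0.26 in G361, 1.81 in TK6, 1.41 in U2OS and 1.04 in BJ, and MDM2, at 0.14, was 0.01, 1.88, 1.47 and 0.95. FUCA1, at 0.83, was 0.11, 4.52, 0.64 and 0.18. PTCHD4, at 1.55, was 0.33, -0.15, 0.73 and 0.91. The CENPE difference was below 0 in each line: -0.71 in HepG2, -0.77 in G361, -0.64 in TK6, -1.33 in U2OS and -1.14 in BJ. Tested against the mean of the other 4 lines, 5 genes differed (0.0312%). GDF15, ATF3 and GADD45A were lower in HepG2: GDF15 was -0.20 against a mean of 1.70, a difference of -1.90 ± 0.26 (SE; adjusted p in limma 8.20e-06), ATF3 -0.73 against 1.10 (adjusted p 0.00232) and GADD45A -0.31 against 0.62 (0.0179). BORA and HJURP were higher: BORA was 0.53 against -0.64 and HJURP 0.52 against -0.53, with an adjusted p of 0.00876 each. For all 5 genes the G361 value lay nearest to that of HepG2, at -0.39 for GDF15 and 0.10 for HJURP. BORA was -1.34 in U2OS and -1.08 in BJ, and HJURP -0.93 and -1.27.

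**Figure D5:**
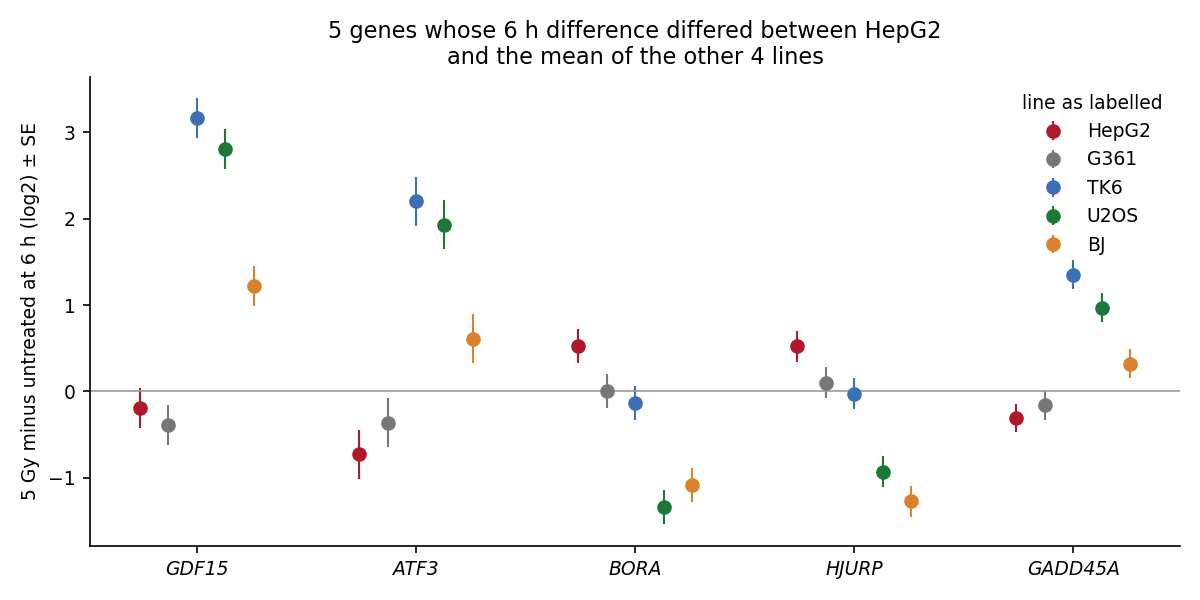
Difference of irradiated minus untreated arrays at 6 h (log2) in each of the 5 lines for the 5 genes called in HepG2 against the mean of the other 4; points are differences of 3 and 3 arrays and bars their SE in the fit of 75 arrays. GDF15 and ATF3 lie below 0 in HepG2 and G361 and above 0 in TK6, U2OS and BJ, and BORA and HJURP lie above 0 in HepG2 and below it in U2OS and BJ.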

How the data were processed

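RNA of the cultures was measured on oligonucleotide arrays with 54675 probe sets. The authors deposited log2 values made with RMA (background correction, normalization and summary per probe set), per the submitters' processing notes. Its version is not given in the sources used, nor is it said whether all 75 arrays were processed jointly. RMA shares its reference distribution over arrays, and no background or presence call was used. Values ran from 1.64 to 13.99 log2, and 0 pairs of arrays were identical. The number of arrays, 3 a group, limits the precision.

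Probe sets were named through a platform annotation (41097 with 1 symbol, 1801 with several, 11777 unnamed here; only the first kind was kept), and gene identifiers were matched to RefSeq genes (41043 matched, 0 symbols changed). A gene with several probe sets was read from the one brightest on average over all 75 arrays, which left 19775 genes. Genes whose mean over the 15 arrays labelled HepG2 passed the 40th percentile of all probe sets were tested with limma 3.58.1 in R 4.3.3 (lmFit, eBayes with trend, Benjamini-Hochberg over 14369 genes, called at an adjusted p under 0.05). The fit of 15 arrays left 10 residual degrees of freedom, that with the replicate block 8, and that of all 75 arrays 50. The fits were also run on simulated arrays in which all groups shared 1 replicate effect. In the measured arrays not every pair of groups did so, as given below, so the simulation does not vouch for the block.

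Groups share replicate numbers in the labels. After removal of the group means, same-numbered arrays of the 2 groups compared correlated at 0.49, 0.15 and 0.38 for replicates 1, 2 and 3, all above 0.1 (the highest between unlike numbers was 0.129), so the numbers were taken to pair them, and values with the block stand beside the others. The block was fitted over all 15 arrays, although in 5 of the 10 pairs of groups the lowest such correlation was not above 0.1; for irradiated 3 h against 0 h they were 0.00884, -0.174 and 0.0681. The fits without the 0 h arrays and of the 6 arrays alone are therefore given too.

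The members, the 23 gene lists and the tests were chosen with earlier results of these data known. Named genes are, by rule, those called in the main comparison, then up to 8 a direction with the smallest unadjusted p, the 8 largest called with the block in each direction, any p53 target, at most 4 called members of each other list (where none, 2 with the smallest unadjusted p), and the genes called in the difference tests. AURKA, ASPM, APOBEC3G, TNFAIP3, IER3, BCL2A1, DTL, CDT1 and GCLC lie outside it and were chosen after their values were seen. Alternatives were no level filter, a further quantile normalization, the mean of all probe sets, no variance trend, other sets of arrays and each replicate left out. Leaving out the 0 h arrays, or replicate 1 at 0 h, and using the untreated 3 h arrays as controls were chosen after seeing the data.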

Additional observations from a re-analysis of the deposited data

Results flagged for a closer look

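In 5 genes the difference between irradiated and untreated arrays at 6 h was not the same in the arrays labelled HepG2 as in the mean of the other 4 lines, by a test of that difference in limma over 16027 genes in 1 fit of 75 arrays. GDF15 was -1.90 log2 from the other lines: it was -0.20 in HepG2 and 3.16 in TK6, 2.81 in U2OS and 1.22 in BJ, with G361 at -0.39. ATF3 was -1.82 from them, at -0.73 in HepG2 (-0.15 on a second probe set) against 2.20, 1.93, 0.61 and -0.36 in the same order. GADD45A was -0.93 from them, at -0.31 against 1.35, 0.97, 0.32 and -0.16. For these 3 stress genes the untreated 6 h arrays of HepG2 were higher than the irradiated ones on average, and they stood above 0 h by 1.99 for GDF15, 1.90 for ATF3 and 0.59 for GADD45A. BORA was 1.17 above the other lines, at 0.53 in HepG2 against -0.14 in TK6, -1.34 in U2OS, -1.08 in BJ and 0.01 in G361. HJURP was 1.05 above them, at 0.52 against -0.03, -0.93, -1.27 and 0.10. For these 2 genes of mitosis the untreated 6 h arrays were the lowest group in HepG2, at -1.48 for BORA and -0.75 for HJURP against 0 h. The part that the levels of the untreated 6 h arrays had in the differences between lines was not tested.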

How the results depend on the processing

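Counts of called genes moved with the setting. The differences of 37 named genes, followed over 18 settings, reversed 0 times. These genes were chosen by their calls or small p-values in the same arrays. Several settings, such as the block, also leave a difference unchanged, so the 0 reversals do not measure stability. Only CENPE of the 37 had a call to lose, and it lost it in 6 of its 18 settings. For irradiated against untreated at 6 h the 1 call became 15 after quantile normalization, 6 with the mean of all probe sets, 56 with the replicate block, 2 without a variance trend, 6 in the 6 compared arrays alone and 447 in these with the block, 4 in the fit of all 75 arrays (where CENPE was not called), 10 without the 0 h arrays, and 149 (338 with the block) against the untreated 3 h arrays. Leaving out arrays gave 0 to 370. The 56 calls with the block became 313 after quantile normalization, 16 with the mean of all probe sets, 6 without a variance trend, 447 in the 6 arrays alone, 488 without the 0 h arrays, and 0 to 463 with arrays left out. With the block, untreated 6 h against 0 h went from 92 to 306 calls, irradiated 6 h against 0 h from 221 to 536, and the effect at 6 h minus 3 h from 0 to 2 (1 after quantile normalization); leaving out arrays gave 12 to 276, 37 to 730 and 0 to 82. The 5 genes that differed from the other lines became 18 after quantile normalization, 13 with the mean of probe sets, 41 with the block and 32 against TK6, U2OS and BJ alone, and 1 to 14 with a replicate left out. The difference in the mean of the p53 targets, 0.24, was 0.19 with the mean of all probe sets, and 0.22 to 0.27 with a replicate left out. The cause of these moves was not tested. Of the p53 targets, 20 were called higher with the block after quantile normalization, 3 with the mean of probe sets, 1 without a variance trend and 26 in the 6 arrays alone. For genes of mitosis called lower it was 13, 2, 1 and 14. Over all genes tested, in either direction, the same settings called 313, 16, 6 and 447. Values near the level limit have a small range above background, which limits genes such as ACER2.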

Other observations

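A few genes called higher with the block had their untreated 6 h arrays spread by replicate number. Their means were also higher in the irradiated than in the untreated arrays at 3 h. These genes were chosen after their values were seen. In limma without the block none was called between the 3 h groups (adjusted p 0.408 for BANP, 0.766 for POLG2 and 0.788 for RNF146). In irradiated 3 h arrays against 0 h, BANP was called (adjusted p in limma 0.0417), and POLG2 (0.139) and RNF146 (0.224) were not. BANP, a nuclear matrix protein, read 8.43, 8.30 and 8.11 in irradiated replicates 1, 2 and 3 at 6 h and 8.03, 7.62 and 7.53 in the untreated ones; its mean was 8.33 in the irradiated and 7.65 in the untreated arrays at 3 h. POLG2, a subunit of the mitochondrial DNA polymerase, read 7.20, 7.16 and 7.01 irradiated and 6.78, 6.49 and 6.36 untreated, with means of 7.31 and 6.87 at 3 h. RNF146, a ubiquitin ligase that acts on PARylated proteins, read 8.05, 8.07 and 7.91 irradiated and 7.83, 7.11 and 6.75 untreated, with means of 7.90 and 7.25 at 3 h. In all 3 the untreated 6 h and untreated 3 h arrays lay below the irradiated ones at the same time on average, by 0.56 for BANP, 0.58 for POLG2 and 0.78 for RNF146 at 6 h.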
